A study of Gallus gallus with 54 samples.

Results

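The genes described here are 10 components of the circadian clock that the deposited files name CLOCK, ARNTL, NPAS2, PER2, PER3, CRY1, CRY2, NR1D2, BHLHE40 and BHLHE41, out of 25717 genes with a symbol. They were taken by name, and each had 1 locus. Their levels were followed in the theca cell (TC) and granulosa cell (GC) layers of the follicle wall at 3 stages, small yellow follicles of 6 mm (syf 6 mm), F5 and F1, where F1 is the preovulatory follicle nearest to ovulation. White Leghorn hens of 35 to 40 weeks were fed 15 mg of bicalutamide (15 mg bic), an antagonist of the androgen receptor, or 100 mg of mestanolone (100 mg mes), an anabolic androgenic steroid, or water (NC). Feeding lasted 4 days, and the ovaries were sampled 1 day after it stopped. The time of day of collection, which matters for clock genes, is not given in the sources used here. In drug-fed hens with more preovulatory follicles than usual, the study labelled the surplus follicles F1 as well, so this label covers a wider range of follicles than in NC hens. The 54 libraries were counted as 50 samples, since some libraries carried the same hen and library number in the names of their files. Of the F1 groups, GCs came from 1 bic, 3 mes and 2 NC hens, and TCs from 2 bic, 3 mes and 3 NC hens. All other groups held 3 hens.

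In the vertebrate clock, CLOCK or its relative NPAS2 pairs with ARNTL (also called BMAL1) and switches on genes that carry E-box sequences. Among these are the PER and CRY genes, whose proteins return to inhibit the pair, and BHLHE40 and BHLHE41, repressors that bind E-boxes themselves. NR1D2 is a nuclear receptor that represses ARNTL transcription. In laying hens ovulation is timed within the day by the clock, and granulosa cells of preovulatory follicles are among the tissues in which clock genes have been studied.

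On the Gallus_gallus-5.0 assembly, the activators lie at chromosome 4, 65471431 to 65531356 on the plus strand (CLOCK), chromosome 5, 7560351 to 7605130 on the minus strand (ARNTL), and chromosome 1, 133321944 to 133431024 on the plus strand (NPAS2). The PER genes lie at chromosome 9, 5500202 to 5541395 (PER2), and chromosome 21, 272583 to 291808 (PER3), and the CRY genes at chromosome 1, 53642388 to 53676704 (CRY1), and chromosome 5, 23945361 to 23965682 (CRY2), all on the minus strand. NR1D2 lies at chromosome 2, 37343012 to 37370894 on the plus strand, BHLHE40 at chromosome 12, 18624949 to 18629296 on the plus strand, and BHLHE41 at chromosome 1, 67640636 to 67644025 on the minus strand. CRY1, BHLHE40 and BHLHE41 have 1 annotated transcript each, while CLOCK has 11, NPAS2 has 10, and PER2 and PER3 have 15 each. Levels are in FPKM (fragments per kilobase of transcript scaled to library size), summed over the transcripts of a gene. CLOCK, ARNTL, NPAS2 and CRY2 each overlap 1 gene on the other strand. The strand setting of the counting is not given in the sources used here, so reads of those partners cannot be told apart from theirs.

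Total counts ran from 33513156 to 65054906 per library. The layer labels were checked with 10 theca and 6 granulosa markers. Of the granulosa markers, AMH (median 13.2 FPKM in TCs and 4.15 in GCs) and OCLN (2.20 and 1.73) were higher in TCs, and the others in GCs. FOXL2 lay between 150 and 340 FPKM in TCs, so the granulosa sum is a rough measure. A sum of oocyte markers was 24.6 to 139 FPKM in NC GCs of 6 mm and at most 2.30 FPKM at F5. Its part in stage differences was not tested. The summed theca markers lay between 8958 and 12219 FPKM in TC samples, while GC samples lay at or below 204 FPKM except for 4. In the GCs of F5 of bic hen 2 the theca sum was 10821 FPKM. The sample was more like NC TCs of 6 mm (mean Spearman correlation across genes 0.908) than the other samples of its own group (0.694). Its oocyte sum was 51.8 FPKM, against 1.35 and 0.938 FPKM in hens 1 and 3 of that group. Its layer and stage labels are therefore in doubt. The theca sum in GCs of 6 mm follicles was 2527 and 2135 FPKM in NC hens 1 and 3, against 82.4 FPKM in hen 2, and 1944 FPKM in bic hen 1. The GCs of 6 mm of bic hen 2 held 362 FPKM of 5 blood markers, against at most 35.8 FPKM in the other GC samples of that stage. Their oocyte sum was 3.77 FPKM, against 39.9 and 50.1 FPKM in bic hens 1 and 3. They were more like bic GCs of F1 (mean Spearman correlation 0.879) than the other samples of their own group (0.785), so their stage label is in doubt. The granulosa sum was 690 FPKM in TCs of F1 of NC hen 1, against 261 and 232 FPKM in hens 2 and 3, and reached 1053 FPKM in TCs of F5 of bic hen 1 and 981 FPKM in TCs of F5 of NC hen 3. In these bulk layers, fewer cells of a type and less RNA per cell cannot be told apart. Layer and stage tests that rest on the GC samples above are given with and without them, except the 6 mm GCs of bic hen 1. That sample stayed in the refits given for bic hens. Medians, ratios of group means and correlations over the 18 groups use all samples. Differences are log2 fold changes ± SE with p-values of edgeR's quasi-likelihood test, adjusted over all genes of a comparison. The fold changes are of counts scaled by edgeR's TMM factors, so they need not equal the ratio of the FPKM values beside them. A member counts as called where its adjusted p was no higher than 0.05 and its mean reached 1 FPKM in a compared group.

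All 10 genes were detected in both layers, at levels that differed widely. CRY1, CRY2 and BHLHE40 had the highest medians, with a median of 39.1 FPKM in TCs and 52.1 in GCs for CRY1 and of 31.0 in TCs and 43.3 in GCs for CRY2. BHLHE40 had a median of 34.2 FPKM in TCs and 22 in GCs, ARNTL 12.6 in TCs and 23.6 in GCs, and NR1D2 13.1 in TCs and 16.0 in GCs. PER2 had a median of 3.84 FPKM in TCs and 13.2 in GCs. CLOCK, NPAS2, BHLHE41 and PER3 were low, with medians between 0.883 and 4.62 FPKM in each layer, and PER3 reached 1 FPKM in 32 of 50 samples. The ratio of the highest to the lowest of the 18 group means was 45.5 for BHLHE40 and 25.3 for BHLHE41, but 3.5 for CRY1 and 3.31 for CRY2. The highest means of the first 2 genes each leaned on 1 hen. BHLHE40 in TCs of 6 mm of bic hens was 127 FPKM in hen 2, against 26.1 and 31.9 FPKM. BHLHE41 in GCs of F5 of mes hens was 24.4 FPKM in hen 1, against 6.88 and 3.17 FPKM. For 6 of the genes (CLOCK, PER3, CRY1, NR1D2, BHLHE40 and BHLHE41) the lowest of the 18 group means was that of NC GCs of F1, and for ARNTL the highest was.

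ARNTL, the partner that both CLOCK and NPAS2 need, differed between all 3 stages in GCs of NC hens. In GCs of NC hens the ARNTL level of 6 mm follicles was 20.6, 9.08 and 15.7 FPKM, that of F5 was 47.8, 33.0 and 40.2 FPKM, and that of F1 was 103 and 82.4 FPKM. Each stage lay wholly above the one before it. The difference was 1.68 ± 0.25 (log2 fold change ± SE, adjusted p = 0.00603) for F1 against F5 and 1.74 ± 0.33 (adjusted p = 0.0308) for F5 against 6 mm. Of these, F1 against F5 was called in 5 of 5 fits that left out 1 sample, and F5 against 6 mm in 1 of 6, that without hen 2 at 6 mm. For F1 against 6 mm it was 3.49 ± 0.40 (adjusted p = 0.00474), or 0.0570 with the hen as a block, a fit in which no gene passed. In TCs of NC hens ARNTL showed no such order, with 17.0, 15.63 and 20.5 FPKM at 6 mm, 12.8, 12.4 and 16.6 FPKM at F5 and 29.3, 6.01 and 9.17 FPKM at F1. The highest of these TC values was in hen 1, whose F1 TCs also had the raised granulosa sum of 690 FPKM, and its part in the level was not tested. The stage change in TCs minus that in GCs, F1 against 6 mm, was -3.30 ± 0.72 (adjusted p = 0.00475) and was called in 17 of 17 fits that left out 1 sample.

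**Figure D1:**
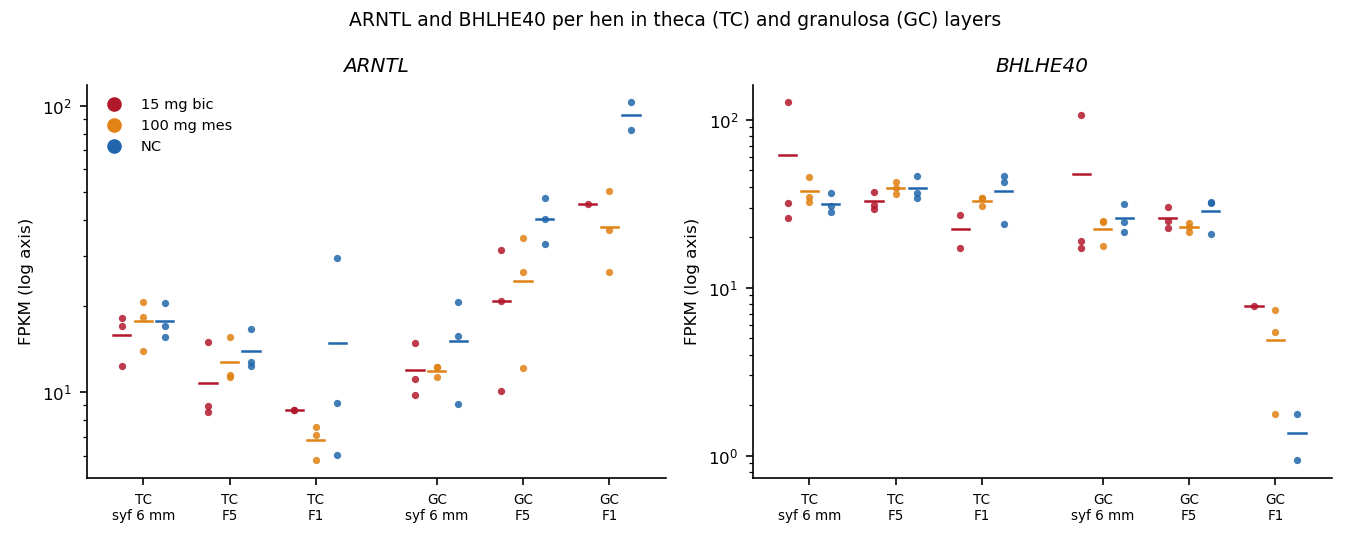
ARNTL and BHLHE40 in FPKM (log axis) per hen (points) with group means (bars), for TCs and GCs at syf 6 mm, F5 and F1, in 15 mg bic, 100 mg mes and NC hens. In GCs of F1 the NC hens lie at 82.4 and 103 FPKM for ARNTL and at 0.936 and 1.77 FPKM for BHLHE40, while all TC samples of BHLHE40 lie above 17 FPKM.

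BHLHE40, which encodes an E-box repressor, moved the other way. In GCs of NC hens it was 31.7, 24.5 and 21.4 FPKM at 6 mm and 32.1, 32.3 and 20.9 FPKM at F5, but 1.77 and 0.936 FPKM at F1. The F1 values were more than 10 times below all earlier ones. F1 against F5 gave -3.89 ± 0.45 (adjusted p = 0.00307), called in 5 of 5 fits that left out 1 sample. F1 against 6 mm gave -3.35 ± 0.47 (adjusted p = 0.00728), or 0.0569 with the hen as a block and 0.0501 without NC hens 1 and 3 of the 6 mm GCs. In TCs of NC hens BHLHE40 measured 36.5, 30.5 and 28.1 FPKM at 6 mm, 46.3, 36.7 and 34.0 FPKM at F5 and 46.5, 42.7 and 24.0 FPKM at F1, and no stage difference passed the test. At F1 it averaged 37.7 ± 12 FPKM in TCs (SD, n = 3) and 1.36 ± 0.592 FPKM in GCs (SD, n = 2), a log2 fold change of 4.37 ± 0.55 (adjusted p = 0.00805).

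BHLHE41, its close relative, was also lowest in NC GCs of F1. It was 0.367 and 0.542 FPKM there, against 4.62, 2.41 and 6.26 FPKM at F5 (-2.82 ± 0.56, adjusted p = 0.0139). Leaving out either of the 2 F1 hens ended the call. The layers changed places with stage. At 6 mm it was lower in TCs (2.29, 3.03 and 3.19 FPKM) than in GCs (3.87, 9.56 and 13.4 FPKM), by -1.63 ± 0.45 (adjusted p = 0.0398, or 0.0608 with the hen as a block). At F1 it was higher in TCs (1.89, 3.33 and 3.70 FPKM) than in GCs (0.367 and 0.542 FPKM), by 2.32 ± 0.43 (adjusted p = 0.0157, or 0.0546 with the hen as a block). The F1 call was lost without GC hen 2 or TC hen 2 or 3. Between these stages the layer difference moved by 3.85 ± 0.79 (adjusted p = 0.00331).

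Between layers of NC hens, members passed the test in different directions at the 3 stages. At 6 mm 2 of 10 were called, NPAS2 higher and BHLHE41 lower in TCs, beside 27.0% of all genes tested. Each was called in 1 of 6 fits that left out 1 sample, NPAS2 in that without GC hen 2 and BHLHE41 in that without GC hen 1. With the hen as a block neither passed, with adjusted p-values of 0.0855 for NPAS2 and 0.0608 for BHLHE41. Without GC hens 1 and 3, which held theca RNA, ARNTL (1.04, adjusted p = 0.0222) and BHLHE41 (-1.68, adjusted p = 0.00952) were called beside 33.7% of all genes, and NPAS2 was not (adjusted p = 0.0535). At F5 6 of 10 were called, all lower in TCs, beside 36.0% of all genes. At F1 7 of 10 were called, 5 higher and 2 lower in TCs, beside 37.0%. The median log2 fold change of the 10 genes, TC against GC, came to 0.26 for 6 mm, -1.19 for F5 and 0.64 for F1, beside medians of -0.06, -0.00387 and 0.19 over all genes. With the hen as a block the F1 count was 2 members, ARNTL (adjusted p = 0.0327) and BHLHE40 (0.0289), beside 15.5% of all genes, while 6 of 6 remained called at F5, beside 29.5%.

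The 6 genes lower in TCs at F5 were the activators ARNTL and NPAS2, the repressors PER2, CRY1 and CRY2, and NR1D2. PER2, a repressor that also responds quickly to outside signals, was 3.63, 1.58 and 1.72 FPKM in NC TCs, against 20.6, 8.70 and 12.8 FPKM in NC GCs (-2.70 ± 0.43, adjusted p = 0.00359). CRY2, its partner in repression, was 26.8, 23.9 and 30.8 FPKM in TCs, against 111, 55.8 and 77.1 FPKM in GCs (-1.63 ± 0.29, adjusted p = 0.00537). ARNTL (-1.56 ± 0.20, adjusted p = 0.00174) and NR1D2 (-1.0 ± 0.16, adjusted p = 0.00338) did the same. The TC and GC values of each of these 4 genes did not overlap, and each was called in 6 of 6 fits that left out 1 sample. NPAS2 (-1.41 ± 0.32, adjusted p = 0.0140) was called in 3 of 6 and CRY1 (-0.69 ± 0.15, adjusted p = 0.0116) in 4 of 6. NPAS2 lost the call without hen 3 of the GCs or hen 1 or 2 of the TCs, and CRY1 without hen 3 of the GCs or hen 2 of the TCs. The granulosa sum was 219, 591 and 981 FPKM in these TCs, against 2765, 2314 and 2327 FPKM in the GCs, and its part in the differences was not tested.

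**Figure D2:**
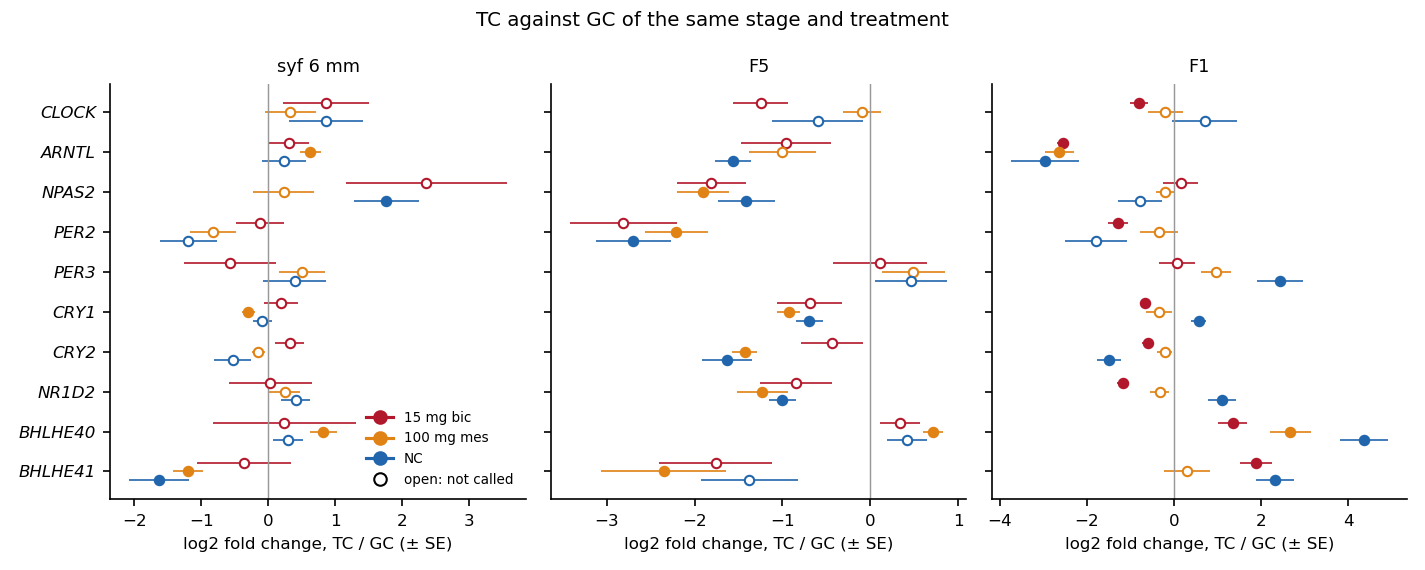
Log2 fold change of TCs against GCs (± SE, horizontal axis) for each gene at syf 6 mm, F5 and F1, in 15 mg bic, 100 mg mes and NC hens, with filled points where the call passed. At F5 the NC values of PER2, CRY2, ARNTL, NPAS2, NR1D2 and CRY1 lie between -2.70 and -0.69, and at F1 BHLHE40 of NC hens lies at 4.37.

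At F1 the layers of NC hens differed in 7 members. ARNTL was 29.3, 6.01 and 9.17 FPKM in TCs, against 103 and 82.4 FPKM in GCs (-2.97 ± 0.78, adjusted p = 0.0350), and lost the call without hen 2 or 3 of either layer. CRY2 was 37.9, 30.4 and 30.5 FPKM in TCs, against 80.2 and 58.0 FPKM in GCs (-1.48 ± 0.27, adjusted p = 0.0158, or 0.0502 with the hen as a block), and lost the call without TC hen 2 or 3. NR1D2 was 11.3, 11.6 and 16.1 FPKM in TCs, against 3.42 and 6.14 FPKM in GCs, a difference of 1.10 ± 0.32 (adjusted p = 0.0438, or 0.0677 with the hen as a block) in the direction opposite to that at F5. CRY1 also turned round, at 37.5, 35.5 and 37.6 FPKM in TCs, against 16.3 and 21.6 FPKM in GCs (0.58 ± 0.17, adjusted p = 0.0484, or 0.179 with the hen as a block). Its call was lost in 5 of 5 fits that left out 1 sample. PER3, a PER gene of uncertain weight in the core loop, was 1.07, 1.45 and 1.3 FPKM in TCs, against 0.0791 and 0.261 FPKM in GCs (2.43 ± 0.53, adjusted p = 0.0218, or 0.0944 with the hen as a block), where it rested on 42 and 52 counts. In TCs all 3 PER3 values lay above 1 FPKM, and in GCs both lay below it. NR1D2 was called in 1 of 5 fits that left out 1 sample, that without GC hen 3, and PER3 in 2 of 5, those without a GC hen.

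In GCs of NC hens, 4 members were called higher at F5 than at 6 mm, beside 9.11% of all genes tested. NPAS2, the alternative to CLOCK, was 4.54, 9.28 and 8.85 FPKM at F5, against 0.649, 1.42 and 0.491 FPKM at 6 mm (3.36 ± 0.56, adjusted p = 0.0243). CLOCK itself was 1.141, 4.98 and 3.06 FPKM at F5, against 2.32, 2.89 and 0.614 FPKM at 6 mm, and its groups overlapped (0.71 ± 0.67, adjusted p = 0.524). NR1D2 averaged 17.1 ± 2.26 FPKM at F5 and 10.2 ± 1.86 FPKM at 6 mm (1.09 ± 0.23, adjusted p = 0.0395, or 0.0659 with the hen as a block), and CRY1 66.4 ± 6.84 FPKM at F5 and 45.1 ± 6.25 FPKM at 6 mm (0.89 ± 0.19, adjusted p = 0.0401; SD, n = 3 each). These calls rested on the 6 mm samples. Without NC hens 1 and 3, which held theca RNA, no gene passed, and the 4 differences were 2.39 for ARNTL, 2.55 for NPAS2, 1.03 for NR1D2 and 0.62 for CRY1 against the single remaining hen, with adjusted p-values of 0.122 to 0.411. In fits that left out 1 sample, NPAS2 was called in 2, CRY1 in 1 and NR1D2 in 0 of 6.

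From F5 to F1 the same cells had 5 members called, beside 29.6% of all genes. ARNTL was higher and BHLHE40, BHLHE41, NR1D2 and CRY1 were lower at F1. CRY1 was 16.3 and 21.6 FPKM at F1, against 58.5, 69.6 and 71.0 FPKM at F5 (-1.34 ± 0.23, adjusted p = 0.00945), and NR1D2 was 3.42 and 6.14 FPKM at F1, against 15.0, 16.9 and 19.5 FPKM at F5 (-1.40 ± 0.33, adjusted p = 0.0233). Neither gene's groups overlapped. CRY1 lost the call without hen 2 of F1, and NR1D2 without that hen or hen 2 or 3 of F5. PER2 was 22.9 and 7.74 FPKM at F1, against 20.6, 8.70 and 12.8 FPKM at F5, and CRY2 was 80.2 and 58.0 FPKM at F1, against 111, 55.8 and 77.1 FPKM at F5. Both genes' groups overlapped. F1 against 6 mm gave 5 calls beside 29.0% of all genes, and none of the 5 with the hen as a block. ARNTL, NPAS2 (3.13 ± 0.72) and CRY2 (1.36 ± 0.37) were higher and BHLHE40 and BHLHE41 (-3.43 ± 0.67) lower at F1. CRY2 overlapped in FPKM, with 80.2 and 58.0 at F1 and 64.7, 45.5 and 35.2 at 6 mm. Its fold change, like those of all members, is of counts scaled by edgeR's TMM factors, while its mean FPKM was 69.1 at F1 and 48.5 at 6 mm. Without 6 mm hens 1 and 3, ARNTL (adjusted p = 0.0281) and BHLHE41 (0.0482) were called, beside 9.18% of all genes. The median log2 fold change of the 10 genes in GCs was 0.80 for F5 against 6 mm, -1.19 for F1 against F5 and -0.24 for F1 against 6 mm, beside -0.02, -0.15 and -0.36 over all genes.

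Fewer members were called in TCs of NC hens. For F5 against 6 mm the called member was PER2, beside 7.63% of all genes, at 3.63, 1.58 and 1.72 FPKM at F5, against 6.17, 13.3 and 11.2 FPKM at 6 mm (-1.90 ± 0.38, adjusted p = 0.0403, or 0.0975 with the hen as a block). The call was lost in 5 of 6 fits that left out 1 sample. It was also lost with all 18 groups in 1 fit, beside 3 genes called. No member was called for F1 against F5 (6.20% of all genes called) or F1 against 6 mm (18.4%). An unadjusted p of at most 0.05 was found for 2 and 0 members, beside 25.1% and 35.8% of all genes. DESeq2 called 2 and 0 members, beside 2732 of 16138 and 4562 of 16511 genes. The difference between layers in the stage change was called for NR1D2 and NPAS2 for F5 against 6 mm (8.41% of all genes), for BHLHE40, BHLHE41, NR1D2 and CRY1 for F1 against F5 (19.3%), and for BHLHE40, BHLHE41, ARNTL and NPAS2 for F1 against 6 mm (23.8%). BHLHE40 gave 3.87 ± 0.50 for F1 against F5 (adjusted p = 0.000221).

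**Figure D3:**
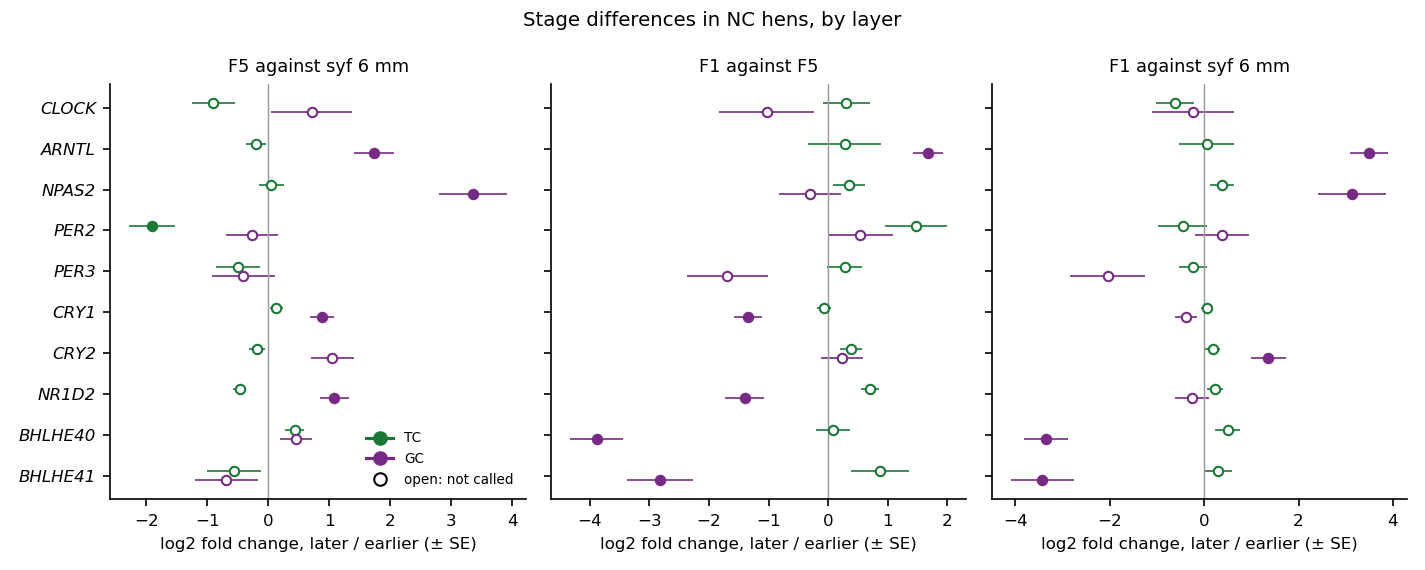
Log2 fold change of the later against the earlier stage (± SE, horizontal axis) for each gene in NC hens, with TCs above GCs in each row and filled points where the call passed. ARNTL lies at 1.68 and BHLHE40 at -3.89 in GCs for F1 against F5, and the 1 filled TC point is PER2 at -1.90 for F5 against syf 6 mm.

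The mes hens were other animals with libraries of their own. Between their layers 4 members were called at 6 mm (47.1% of all genes), 7 at F5 (46.8%) and 2 at F1 (37.6%). At F5 PER2 (-2.21 ± 0.36), CRY2 (-1.43 ± 0.14), NR1D2 (-1.23 ± 0.29), NPAS2 (-1.90 ± 0.29) and CRY1 (-0.93 ± 0.13) were lower and BHLHE40 (0.71 ± 0.11) was higher in TCs, each called in 6 of 6 fits that left out 1 sample. BHLHE41 was lower too (-2.35 ± 0.71), but the adjusted p was 0.0667 with the hen as a block, and GC hen 1 held 24.4 FPKM, against 6.88 and 3.17 FPKM in hens 2 and 3. ARNTL, called in NC hens at this stage, was at -1.0 ± 0.38 in mes hens (adjusted p = 0.0632). At F1 ARNTL was 5.78, 7.08 and 7.58 FPKM in mes TCs, against 26.3, 50.2 and 37.0 FPKM in mes GCs (-2.63 ± 0.32, adjusted p = 0.00168), and BHLHE40 was 34.1, 34.3 and 30.5 FPKM in TCs, against 7.33, 1.77 and 5.46 FPKM in GCs (2.67 ± 0.47, adjusted p = 0.00570). Both genes' layers did not overlap. The other members called between layers of NC hens at F1 did not pass in mes hens. NR1D2 was at -0.32 ± 0.22 and CRY1 at -0.34 ± 0.29, opposite in sign to the NC values of 1.10 and 0.58, CRY2 was at -0.21 ± 0.16 against -1.48 in NC hens, and BHLHE41 was at 0.31 ± 0.53 and PER3 at 0.97 ± 0.34 (adjusted p = 0.0608). At 6 mm ARNTL (0.63 ± 0.16) and BHLHE40 (0.82 ± 0.20) were higher and BHLHE41 (-1.20 ± 0.22) and CRY1 (-0.30 ± 0.10, adjusted p = 0.0506 with the hen as a block) lower in TCs. In fits that left out 1 sample, BHLHE40 and BHLHE41 were called in 6 of 6 and ARNTL and CRY1 in 2 of 6. With all 18 groups in 1 fit no member was called at 6 mm, beside 6653 genes.

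In GCs of mes hens 5 members were called higher at F5 than at 6 mm (24.6% of all genes), namely ARNTL (1.25 ± 0.36, adjusted p = 0.0745 with the hen as a block), NPAS2, CRY1, CRY2 and NR1D2. CRY2 was 69.0, 79.4 and 66.4 FPKM at F5, against 44.4, 42.3 and 47.0 FPKM at 6 mm (0.92 ± 0.11, adjusted p = 0.00235), without overlap. NPAS2 was 7.20, 10.0 and 9.96 FPKM at F5, against 3.58, 1.18 and 4.06 FPKM at 6 mm (1.84 ± 0.46, adjusted p = 0.0269). For F1 against F5 4 were called lower (18.2%), PER2 (-1.65 ± 0.39), CRY2 (-0.91 ± 0.19), NPAS2 (-1.37 ± 0.22) and BHLHE40 (-2.0 ± 0.45). Of these PER2 alone passed with the hen as a block (adjusted p = 0.0499), beside 694 of 15233 genes. PER2 was 3.77, 5.54 and 2.61 FPKM at F1, against 18.8, 19.3 and 12 FPKM at F5. In fits that left out 1 sample, PER2 was called in 1, CRY2 in 2, BHLHE40 in 2 and NPAS2 in 5 of 6. For F1 against 6 mm (34.9%) ARNTL was higher (2.15 ± 0.30) and PER2 (-1.67 ± 0.37) and BHLHE40 (-1.77 ± 0.47) were lower. In TCs of mes hens ARNTL was 5.78, 7.08 and 7.58 FPKM at F1, against 13.9, 18.4 and 20.7 FPKM at 6 mm, a difference of -1.19 ± 0.19 (adjusted p = 0.00879; 23.5% of all genes) that was called in 6 of 6 fits that left out 1 sample. For F1 against F5 (15.1%) ARNTL was lower (-0.82 ± 0.17) and BHLHE41 higher (0.89 ± 0.23, adjusted p = 0.0560 with the hen as a block) in these TCs. With all 18 groups in 1 fit no member was called in these TCs for F1 against 6 mm, beside 916 genes. None was called in that fit for F1 against F5 either, beside 142 genes. For F5 against 6 mm (0.0708%) no member passed. There 2 members had an unadjusted p of at most 0.05, beside 13.8% of all genes, and DESeq2 called 1, beside 500 of 16960 genes.

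**Figure D4:**
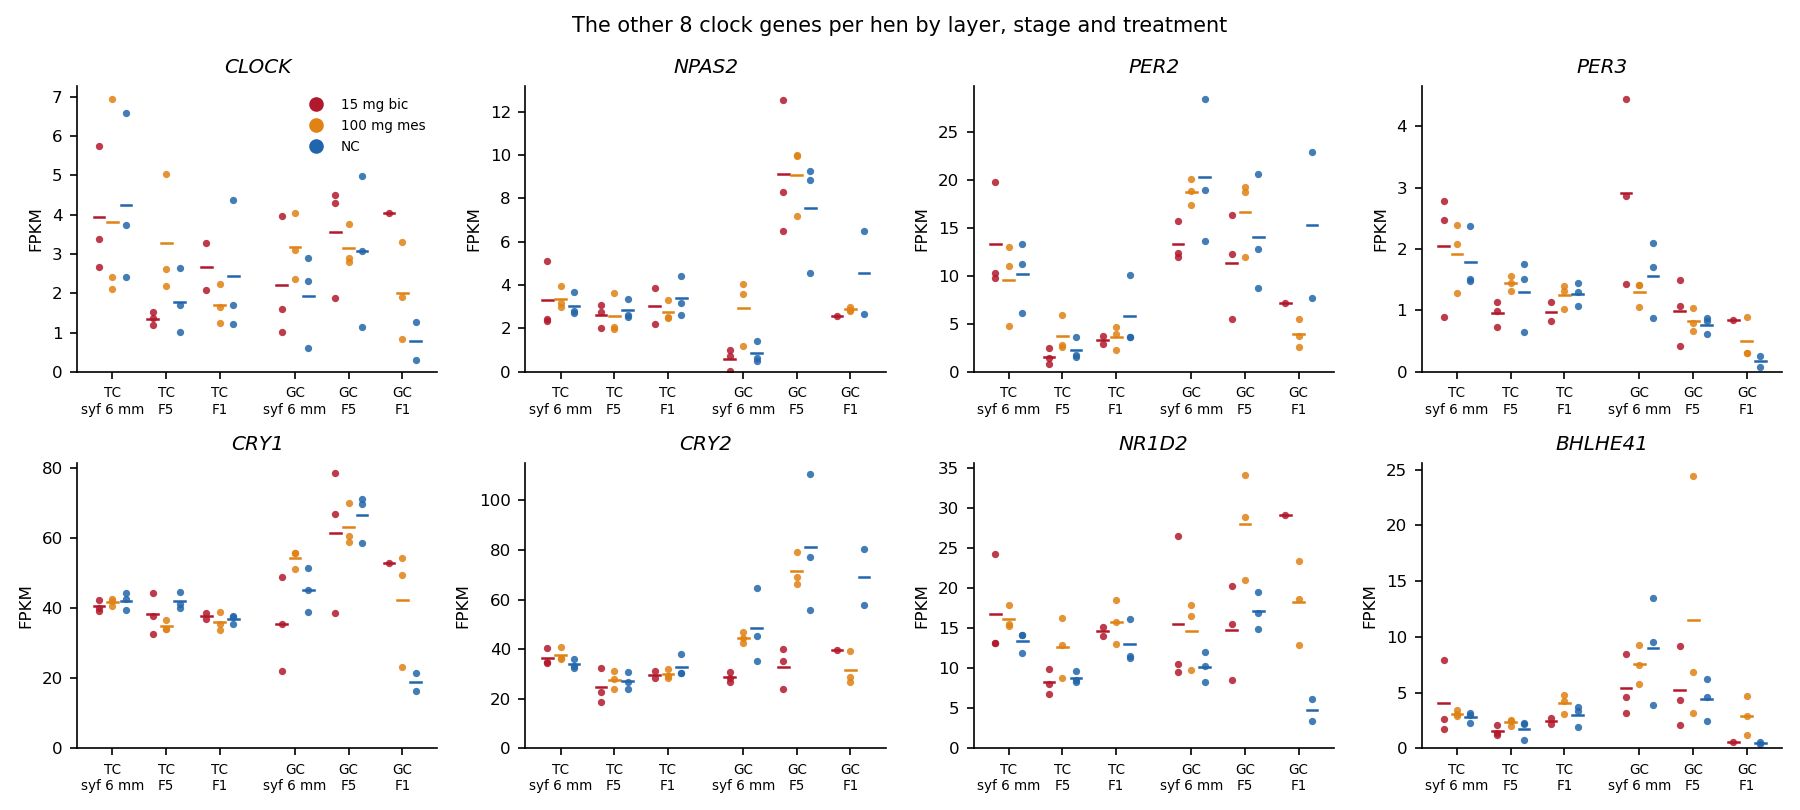
FPKM per hen (points) and group means (bars) of CLOCK, NPAS2, PER2, PER3, CRY1, CRY2, NR1D2 and BHLHE41 in TCs and GCs at syf 6 mm, F5 and F1, in 15 mg bic, 100 mg mes and NC hens. NPAS2 of GCs is highest at F5 in all 3 treatments, and NR1D2 of GCs of F1 lies at 29.2 FPKM in the bic hen, 12.9 to 23.4 FPKM in mes hens and 3.42 to 6.14 FPKM in NC hens.

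In bic hens no member was called between layers at 6 mm (2.65% of all genes) or F5 (0.0120%). An unadjusted p of at most 0.05 was found for 0 and 4 members, beside 27.6% and 21.5% of all genes. DESeq2 called 0 and 4 members, beside 3833 of 17082 and 2559 of 16617 genes. Without the GC sample of hen 2 at 6 mm, and with that of hen 1 kept, still 0 members were called, beside 22.3% of all genes. Without the doubtful F5 sample 7 members were called lower in TCs at F5, beside 42.1% of all genes, among them PER2 (-3.15, adjusted p = 0.00556), NPAS2 (-2.05, adjusted p = 0.00568) and NR1D2 (-1.15, adjusted p = 0.0106). At F1 8 members were called between the layers, of 2 TC hens against 1 GC hen (37.8% of all genes). ARNTL was 8.64 and 8.66 FPKM in TCs, against 45.3 FPKM in GCs (-2.56 ± 0.12, adjusted p = 0.00122), and BHLHE40 was 17.3 and 27.2 FPKM in TCs, against 7.76 FPKM in GCs (1.35 ± 0.33, adjusted p = 0.0425). NR1D2 was lower in TCs here (-1.17 ± 0.13, adjusted p = 0.00632), the direction opposite to that in NC hens at F1, but the 2 differences were not tested against each other. The single GC hen is assumed to vary like the TCs, so the spread comes from 2 samples. With the spread taken from all 18 groups only ARNTL was called (adjusted p = 0.00305, 18.9% of all genes), and NR1D2 (0.0716) and BHLHE40 (0.311) were not. Between stages of bic GCs no gene passed for F5 against 6 mm (0.0%), F1 against F5 (0.0%) or F1 against 6 mm (0.0%), and 1, 1 and 2 members had an unadjusted p of at most 0.05. Without both samples of hen 2, 4, 1 and 2 members passed in these comparisons, beside 11.3%, 7.31% and 4.51% of all genes, and ARNTL was higher by 1.53 at F5 than at 6 mm (adjusted p = 0.0430). The 6 mm GCs of hen 1 stayed in these fits. With all samples, the share of all genes with an unadjusted p of at most 0.05 was 3.88% for F5 against 6 mm. It was 5.65% for F1 against F5 and 6.54% for F1 against 6 mm, where F1 was 1 hen. With all samples DESeq2 called 0 members for F5 against 6 mm, beside 145 of 16744 genes. For F1 against F5 it called 0, beside 1280 of 18802 genes, and for F1 against 6 mm 2, beside 923 of 18536.

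In TCs of bic hens PER2 was 2.43, 0.842 and 1.41 FPKM at F5, against 9.80, 19.8 and 10.3 FPKM at 6 mm, a difference of -2.83 ± 0.49 (adjusted p = 0.0191, or 0.0629 with the hen as a block; 12.8% of all genes). The groups did not overlap, and the call held in 3 of 6 fits that left out 1 sample, lost without hen 1 at 6 mm or hen 2 or 3 at F5. For F1 against F5 (2.34%) and F1 against 6 mm (2.29%) no member passed. In each, 2 members had an unadjusted p of at most 0.05, beside 24.7% and 21.7% of all genes. DESeq2 called 2 in each, beside 3284 of 16977 and 2555 of 17335 genes. With the hen as a block PER2 (adjusted p = 0.0148) and ARNTL (0.0238) passed for F1 against 6 mm, beside 16.4% of all genes. Hen 2 stood apart at 6 mm in both layers, though the stage label of its GC sample is in doubt, as given with the markers. The BHLHE40 level of hen 2 was 127 FPKM in TCs and 107 FPKM in GCs. Bic hens 1 and 3 lay between 26.1 and 31.9 FPKM in TCs and between 17.3 and 19.0 FPKM in GCs. Its NR1D2 was also the highest of the 3 hens, at 24.3 FPKM in TCs and 26.5 FPKM in GCs, against 9.55 to 13.1 FPKM in hens 1 and 3. The blood marker sum of hen 2 was 183 FPKM in TCs and 362 FPKM in GCs, against 34.2 and 61.3 FPKM in TCs and 2.75 and 10.7 FPKM in GCs of hens 3 and 1, and its part in these levels was not tested.

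Neither drug changed a member past the threshold in any of 12 comparisons with NC hens by edgeR. The share of all genes called was 0.0% for bic in GCs of 6 mm, 0.0% at F5 and 1.17% at F1, and 0.0296%, 0.0% and 0.0% in TCs of these stages. For mes it was 0.0% in GCs of 6 mm, 0.0% at F5 and 0.0% at F1, and 0.0354%, 0.0122% and 0.0% in TCs. Without the GC samples of bic hen 2, 0 members were called for bic at 6 mm and 0 at F5. Beside these, 0 and 3 of all genes were called. Of 120 tests of members 14 had an unadjusted p of at most 0.05, and 10 of these were in GCs of F1, where 26.5% of all genes for bic and 20.5% for mes had such a p. DESeq2 called 4 members for bic (20.1% of all genes) and 5 for mes (14.0%) in GCs of F1, and 0 in the other 10 comparisons.

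In GCs of F1 the drug-fed hens lay apart from the 2 NC hens in several members. ARNTL was 45.3 FPKM in the bic hen and 26.3, 50.2 and 37.0 FPKM in mes hens, against 103 and 82.4 FPKM in NC hens. The log2 fold change was -1.22 ± 0.30 for bic (adjusted p = 0.120) and -1.51 ± 0.38 for mes (adjusted p = 0.155). NR1D2 was 29.2 FPKM in the bic hen and 23.4, 12.9 and 18.6 FPKM in mes hens, against 3.42 and 6.14 FPKM in NC hens, with 2.45 ± 0.48 for bic (adjusted p = 0.0934) and 1.69 ± 0.39 for mes (adjusted p = 0.151). CRY2 was 39.8 FPKM in the bic hen and 39.2, 28.9 and 26.8 FPKM in mes hens, against 80.2 and 58.0 FPKM in NC hens, with -0.98 ± 0.34 for bic (adjusted p = 0.184) and -1.40 ± 0.26 for mes (adjusted p = 0.146). These 3 genes did not overlap between the 4 drug-fed and the 2 NC hens. Among genes with a mean of at least 1 FPKM, 6 of 9 members (66.7%) did not overlap, beside 41.7% of 11975 genes. Besides the genes above these were CRY1, BHLHE41 and PER2, with small gaps. The nearest drug-fed and NC values were 23.3 and 21.6 FPKM for CRY1, 0.572 and 0.542 for BHLHE41, and 7.13 and 7.74 for PER2. Without hen 2 of the mes group 4 members passed for mes against NC beside 11.4% of all genes, namely ARNTL, CRY2, NR1D2 and PER2. With that hen kept, 0 members passed beside 0.0% of all genes. Its sample was more like NC GCs of F1 (mean Spearman correlation 0.940) than the other samples of its own group (0.927).

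BHLHE40 was 7.76 FPKM in the bic hen and 7.33, 1.77 and 5.46 FPKM in mes hens, against 1.77 and 0.936 FPKM in NC hens. Its differences were 2.30 ± 0.56 for bic (adjusted p = 0.119) and 1.54 ± 0.66 for mes (adjusted p = 0.264). BHLHE41 was 0.572 FPKM in the bic hen and 2.91, 4.68 and 1.22 FPKM in mes hens, against 0.367 and 0.542 FPKM in NC hens, so that mes hens lay above both other groups (2.47 ± 0.74 against NC, adjusted p = 0.176). CRY1 was 52.7 FPKM in the bic hen and 49.4, 23.3 and 54.2 FPKM in mes hens, against 16.3 and 21.6 FPKM in NC hens. PER2 was 7.13 FPKM in the bic hen and 3.77, 5.54 and 2.61 FPKM in mes hens, against 22.9 and 7.74 FPKM in NC hens. The wider use of the F1 label in drug-fed hens and the drug cannot be told apart here. The theca sum was 13.2 FPKM in the bic hen and 30.5 to 42.1 FPKM in mes hens, against 141 and 51.8 FPKM in NC hens.

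**Figure D5:**
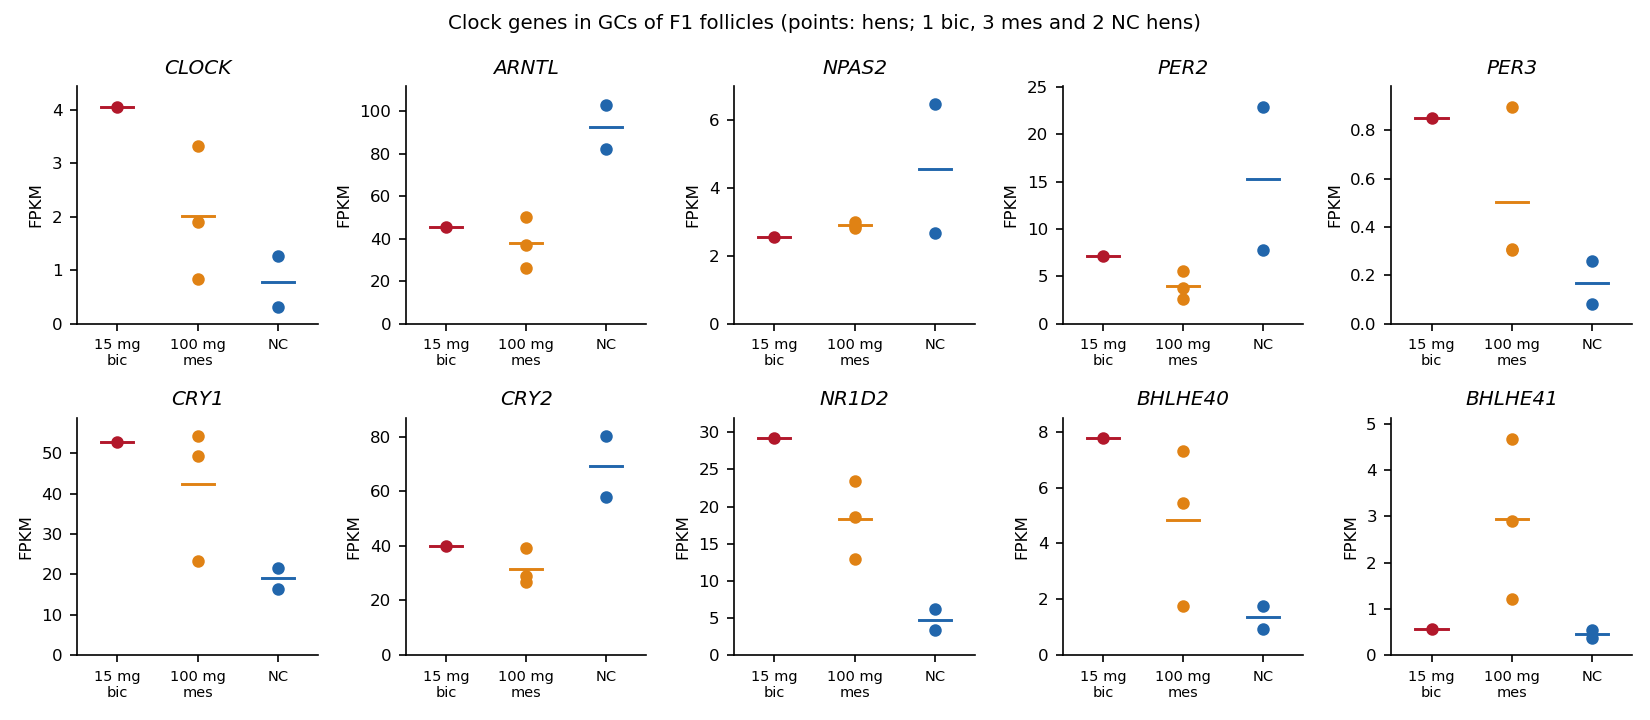
FPKM of the 10 genes in GCs of F1 follicles, with hens as points and group means as bars, for 15 mg bic (1 hen), 100 mg mes (3 hens) and NC (2 hens). ARNTL of NC hens, at 82.4 and 103 FPKM, lies above all drug-fed hens, and NR1D2 of NC hens, at 3.42 and 6.14 FPKM, lies below them.

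Whether mes changed the course of a gene over stages was asked with the difference of 2 stage differences, mes against NC. In GCs no member was called for F5 against 6 mm (0.0% of all genes) or F1 against F5 (2.90%). An unadjusted p of at most 0.05 was found for 0 and 5 members, beside 6.89% and 19.5% of all genes. DESeq2 called 0 and 3, the 3 beside 8.34% of all genes. In TCs none was called for F5 against 6 mm (0.0%) or F1 against F5 (0.0%). At that p there were 1 and 0 members, beside 2.94% and 5.13% of all genes, and DESeq2 called 0. The nearest to the threshold was PER2 in GCs for F1 against F5 (-2.18 ± 0.66, adjusted p = 0.0873). BHLHE40 in the same contrast was 1.90 ± 0.58 (adjusted p = 0.0883). With the hen as a block CRY2 passed there (adjusted p = 0.0492), beside 1.48% of all genes.

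The wider clock list held 18 genes, of which 14 had a locus in the count table and NR1D1 had 2, and PER1, CRY4, DBP and TIMELESS were not analysed here. In GCs of NC hens 2 of 14 loci tested were called higher and 3 lower at F1 than at F5, beside 29.6% of all genes. HLF, a transcription factor of the PAR bZIP family and a classical output of the clock, was 54.7 and 68.3 FPKM at F1, against 20.7, 14.9 and 13.4 FPKM at F5 (2.38 ± 0.27, adjusted p = 0.00280). ARNTL2, a paralogue of ARNTL, went against ARNTL, at 1.72 and 2.36 FPKM at F1 and 19.5, 13.5 and 24.5 FPKM at F5 (-2.90 ± 0.33, adjusted p = 0.00308). FBXL21, an F-box protein that acts on CRY stability in mammals, was 2.84 and 1.92 FPKM at F1, against 15.7, 19.1 and 21.9 FPKM at F5 (-2.49 ± 0.32, adjusted p = 0.00400). None of the 3 overlapped between stages, and each was called in 5 of 5 fits that left out 1 sample.

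In TCs of NC hens no locus of the list passed for F1 against F5, beside 6.20% of all genes. HLF was at 0.91 ± 0.39 (adjusted p = 0.208) and NFIL3, a repressor of the bZIP family, at 1.19 ± 0.51 (adjusted p = 0.211). Between layers at F5 2 of 14 loci were called higher and 4 lower in TCs, beside 36.0% of all genes. FBXL21 was lower in TCs (-1.96 ± 0.21, adjusted p = 0.00081), and TEF, a relative of HLF, was 83.6, 72.7 and 54.4 FPKM in TCs, against 5.34, 12 and 10.7 FPKM in GCs (2.88 ± 0.35, adjusted p = 0.00130). At F1 1 of 15 loci was called higher and 3 lower in TCs, beside 37.0% of all genes. TEF was again higher in TCs (2.82 ± 0.25, adjusted p = 0.00438), while HLF was 26.0, 11.9 and 10.3 FPKM in TCs, against 54.7 and 68.3 FPKM in GCs (-2.31 ± 0.49, adjusted p = 0.0212). HLF lost that call in 4 of 5 fits that left out 1 sample. No locus of the list was called between treatments.

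The genes whose group means followed a member most closely were found by Pearson's r of mean log2(FPKM + 1) over the 18 groups, among 15642 genes with a group mean of at least 1 FPKM. As a description, BHLHE40 was followed most closely by SNX24 (r = 0.959), ST3GAL6 (0.953) and GALM (0.952). ARNTL was followed by GPR17 (0.941), NCKIPSD (0.934) and TMEM97 (0.927). For CLOCK these were GPATCH2 (0.936), DENND1B (0.895) and MOSPD2 (0.889), and for NPAS2 FLVCR2 (0.843), IL12RB2 (0.827) and LOXL1 (0.782). PER2 was followed by RBSN (0.900), XPO1p (0.881) and IPPK (0.874), and PER3 by L3MBTL3 (0.901), PRKCI (0.899) and C3H6ORF203 (0.893). The CRY genes had different followers, ANKRD50 (0.922) and RBM12 (0.906) for CRY1 and MPZL1 (0.883), PLCXD1 (0.867) and SCAF4 (0.860) for CRY2. NR1D2 was followed by NAV2 (0.902), SMARCA2 (0.873) and SUFU (0.865), and BHLHE41 by TMEM136-2 (0.924), PAFAH2 (0.914) and ZNF746 (0.907). Among the members themselves the most opposed pair was ARNTL and BHLHE40 (r = -0.793) and the most alike PER3 and BHLHE40 (r = 0.786). The groups share hens and differ in layer, so these values describe 18 points that are not independent.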

How the data were processed

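RNA of GC and TC layers was sequenced as 150 bp read pairs. The authors trimmed reads, aligned them with HISAT2 2.1.0 and quantified genes of Gallus_gallus-5.0 with StringTie 1.3.4d (versions per the submitters' processing notes). The deposited table holds read counts per gene, which the authors derived from StringTie's coverage, so counts are not whole fragments. Coverage times transcript length, divided by 75, gave the deposited count for at least 26619 of 26624 genes. Since reads were 150 bp, a count is not a whole read either. The authors' deposited files per library hold other StringTie values, from which the FPKM of a gene was summed over its transcripts.

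Libraries with the same hen and library number were summed to 1 sample. The counts of the 5 such pairs differed less (chi-square per degree of freedom 19.0 to 28.5) than those of the other 49 pairs within groups (62.5 to 1823). Their FPKM values were averaged. Rows without a symbol, at most 0.605% of a library's counts, were left out. Counts were tested with edgeR 4.0.16 in R 4.3.3 by its quasi-likelihood F test, with TMM factors and filterByExpr, using only the compared groups. The SE is the absolute log2 fold change divided by the square root of F. Benjamini-Hochberg adjustment ran over every gene tested in a comparison. The threshold was 0.05, with 1 FPKM as the minimum mean in a compared group. Comparisons were 9 between layers, 18 between stages, 12 between treatments and 7 interactions. Where a group was left with 1 sample, it was assumed to vary like the other groups. The fits were tested on simulated data. P-values measure the spread between hens.

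Layers and stages of a treatment share hens by the numbers in the file names, and the hen was a block in an alternative fit. The median correlation of residuals of same-hen samples was 0.0720 between layers (range -0.0656 to 0.276) and 0.120 between stages (range -0.363 to 0.217). All same-hen pairs lay above 0.1 in 0 of 8 layer comparisons and in 7 of 16 stage comparisons. Between treatments hens share a number only. Named were the 10 members, counts of a wider clock list with the 3 smallest p in each of 4 NC comparisons, and the 3 genes most like each member. Of the genes this rule names, 3 are not reported here. Alternatives were RLE factors, no low-count filter, DESeq2 1.42.0, all 18 groups in 1 fit, libraries kept as labelled, a log2 fold minimum of 1.5, no FPKM minimum, leaving out samples and a pseudocount of 0.1. The members and lists were chosen with earlier results of these data known. Promoter and protein sequences were not analysed here.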

Additional observations from a re-analysis of the deposited data

Results flagged for a closer look

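The change over stages differed between TCs and GCs of NC hens for several members, by the test of the difference itself. Each value below is the log2 fold change over stages in TCs minus that in GCs, with 3 hens in each group except 2 for GCs of F1. For F5 against 6 mm, NPAS2 was at -3.18 ± 0.64 (adjusted p = 0.0123) and NR1D2 at -1.43 ± 0.31 (adjusted p = 0.0165). Both differences lost the call without the 6 mm GCs of NC hens 1 and 3, with adjusted p-values of 0.0899 and 0.0690. For F1 against F5, BHLHE40 was at 3.87 ± 0.50 (adjusted p = 0.000221), BHLHE41 at 3.61 ± 0.79 (adjusted p = 0.00564), NR1D2 at 2.02 ± 0.34 (adjusted p = 0.00118) and CRY1 at 1.19 ± 0.22 (adjusted p = 0.00195). These 4 were called in 17 of 17 fits that left out 1 sample, with the hen as a block and without those 2 GC samples. For F1 against 6 mm, BHLHE40 was at 3.98 ± 0.50 (adjusted p = 0.000127), BHLHE41 at 3.85 ± 0.79 (adjusted p = 0.00331), ARNTL at -3.30 ± 0.72 (adjusted p = 0.00475) and NPAS2 at -2.63 ± 0.66 (adjusted p = 0.0110). NPAS2 lost the call without the F1 GCs of hen 2, and without the 6 mm GCs of hens 1 and 3 (adjusted p = 0.0949). All groups held 3 samples or fewer. Beyond the marker sums, correlations and refits given above, they were not searched for outlying samples.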

How the results depend on the processing

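The counts of calls were 36 of 90 between layers, 31 of 180 between stages, 0 of 120 between treatments and 10 of 70 for interactions. The share of all genes called ran from 0.012% to 47.1% over the layer comparisons and from 0.0% to 34.9% over the stage comparisons. It ran from 0.0% to 1.17% between treatments and from 0.0% to 23.8% for interactions. A log2 fold minimum of 1.5 left 16 calls between layers and 17 between stages, and was not run for interactions. DESeq2 gave 49 calls between stages, 9 between treatments and 20 for interactions. It also called more of all genes, for example 3633 against 1482 for F5 against 6 mm in NC GCs. All 18 groups in 1 fit kept 21 of the 36 layer calls and 22 of the 31 stage calls. That fit gave 11 calls between treatments. In GCs of F1 there were 4 for bic, beside 3470 genes, and 6 for mes, beside 2644 genes. In GCs of F5 there was 1 for bic, beside 2178 genes. Libraries kept as labelled gave 12 between treatments and 19 for interactions. The 12 were 7 for bic in GCs of F1, beside 8322 genes, and 5 for mes, beside 1356 genes. Of the 19, 7 were for layer by stage, F1 against 6 mm, beside 5360 genes. That setting counts repeat libraries of 1 hen as separate hens, so its p-values do not measure the spread between hens. Leaving out 1 sample at a time gave 30 to 43 calls between layers, 25 to 33 between stages, 0 to 4 between treatments and 9 to 14 for interactions. With the replicate block (hen) there were 27 calls between layers, 21 between stages, 0 between treatments and 13 for interactions. It kept 18 of the 31 stage calls and 10 of 10 for interactions. The number of all genes called moved too. With the block it was 2539 against 6057 between layers of NC hens at F1. For F1 against 6 mm in bic TCs it was 2842 against 397. The 8 layer calls of bic F1, which could not be fitted with it, are among the 27. Without NC GC 6 mm hens 1 and 3, chosen after seeing the data, there were 36, 24, 0 and 9 calls. No called difference changed sign under any alternative run. Of the 30 genes most like a member 26 stayed with a pseudocount of 0.1. The GCs of F1 rest on 1 to 3 hens, which limits every statement on that stage.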
